A study of Homo sapiens with 16 samples.

Results

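The G2/M and mitosis genes described here are 33 protein-coding genes of 7 steps of cell division, found by their symbols among the 28277 gene symbols of each deposited table, and all 33 were present and tested in both tables. They comprise 8 cyclins, CDK1 and kinases or partners of mitotic entry, 6 genes of the spindle checkpoint and its target, the anaphase-promoting complex (APC/C), 6 of the kinetochore, centromere and passenger complex, 4 kinesin motors, 5 spindle assembly factors, 2 genes of chromosome structure and 2 of cytokinesis. The series holds 12 poly(A) RNA libraries of INA6 and JJN3, established human lines of the plasma cell cancer multiple myeloma. The INA6 KANSL2 knockdown, INA6 non-targeting, JJN3 KANSL2 knockdown and JJN3 non-targeting groups held 3 libraries each, all labelled untreated, and 4 JJN3 chromatin accessibility libraries were not analysed here. Cells are labelled as plasma cells and carried sgRNAs, either against KANSL2 or non-targeting, with the repressor that the design text spells CRISPR-dCas9-CRAB. It is a Cas9 without nuclease activity that is used to silence a promoter, and the non-targeting cells carry it too. The labels give neither the guide sequences, nor the time after knockdown, nor whether the lines were clones. Nor do they say whether the 3 libraries of a group came from separate cultures. The p-values therefore reflect the scatter among these libraries and this scatter could be technical. KANSL2 belongs to the NSL complex, an assembly with the histone acetyltransferase KAT8 that is known to act at promoters. The comparison asks how transcripts of the mitotic machinery differ between cells with the KANSL2 guide and cells with the non-targeting guide, in each line and between lines.

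Most mitotic genes are transcribed in a wave in late S phase and G2. In resting cells the DREAM complex, which contains E2F4 or E2F5 and the pocket proteins RBL1 or RBL2, holds these promoters silent, and in cycling cells MYBL2 and FOXM1 take the place of the repressor. The wave supplies CDK1 and B-type cyclins for entry into mitosis, the checkpoint that holds anaphase until chromosomes attach, the APC/C activator that ends that hold, and the motors and scaffolds of spindle and midbody. In a culture of dividing cells the level of these transcripts therefore follows both how many cells are in G2 and M and how much RNA each such cell holds, and these bulk libraries cannot tell apart fewer cells and less RNA per cell.

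Values are the authors' rlog values, a size-factor scaled log2 expression in which genes with few reads are shrunk towards their mean, so differences are understated for low genes. A difference is the knockdown mean minus the non-targeting mean within a line. It was tested with limma over the 12511 symbols (INA6) or 12282 symbols (JJN3) with a mean rlog of at least 3, and a gene is said to rise or fall where the Benjamini-Hochberg adjusted p over all those symbols was below 0.05. An exact permutation test of 3 values against 3 has a smallest p of 0.1, so calls rest on the model across all genes. The tables were normalised separately, so levels are not compared between lines, and rlog values are not scaled to gene length, so they are not compared between genes. Counts are not given in the files and the depth is unknown. Each call was repeated under 12 alternatives in its line, 6 of which leave out a library. The other 6 are no filter on low values, a minimum mean of 5, median centring, quantile normalisation, no variance trend and a block for the replicate number. Alternatives other than the block that lose a call are given beside it, and the block, since replicate numbers did not pair the libraries, is given once with the effects of the processing.

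The targeted gene was lower in every knockdown library. KANSL2 (chr12:48653211-48682238, GRCh38.p14) had 7.71, 7.60 and 7.76 in the INA6 KANSL2 knockdown libraries, against 8.06, 8.02 and 8.16 in the INA6 non-targeting libraries, a difference of −0.39 ± 0.0625 (SE, limma adjusted p = 3.06e-05), which leaves 76.4% of the non-targeting level on the rlog scale. The JJN3 values were 6.00, 5.98 and 6.06 in the JJN3 knockdown libraries and 7.25, 7.24 and 7.19 in the JJN3 non-targeting libraries, a difference of −1.21 ± 0.0559 (SE, limma adjusted p = 1.48e-16), leaving 43.1%. KANSL2 thus fell in both lines without overlap, by a larger amount in JJN3. The INA6 minus JJN3 difference was 0.82 ± 0.0838 (SE, adjusted p = 2.11e-11). All 10 plasma cell markers had a mean of at least 3 in both lines. Their summed rlog was 119.0 to 120.3 in INA6 knockdown and 122.7 to 123.1 in INA6 non-targeting libraries, with 2 markers up and 7 down. In JJN3 the sum was 115.0 to 115.4 in JJN3 knockdown and 113.1 to 113.8 in JJN3 non-targeting libraries, with 6 up and 1 down. Markers of other cell types were low or mixed. Each sum is over all markers of its list, also those under 3, and rlog values below 0 lower it. Of the 6 B cell markers 3 reached a mean of 3 in each line. Their sum was 24.9 to 25.4 in INA6 knockdown and 25.1 to 25.2 in INA6 non-targeting libraries, where MS4A1 is listed at 0. It was 22.5 to 22.6 in JJN3 knockdown and 20.9 to 21.0 in JJN3 non-targeting libraries, and the 3 markers tested there rose. Of 7 T and NK cell markers 3 in INA6 and 1 in JJN3 reached 3, with CD3D and CD3G listed at 0 in JJN3. Their sum was 12.08 to 12.12 in INA6 knockdown and 12.18 to 12.47 in INA6 non-targeting libraries, and 9.26 to 9.33 in JJN3 knockdown and 9.33 to 9.67 in JJN3 non-targeting libraries. None of the 3 tested in INA6 passed, and the 1 tested in JJN3 fell, at −0.18 (limma adjusted p = 0.0108). Of 7 myeloid markers CD14 alone reached 3. Their sum was 2.81 to 3.11 in INA6 knockdown and 2.80 to 2.88 in INA6 non-targeting libraries, and 4.52 to 4.76 in JJN3 knockdown and 4.52 to 4.68 in JJN3 non-targeting libraries. S100A9 and FCGR3A are listed at 0 in both lines, S100A8 in INA6 and LYZ in JJN3. Of 7 stromal and epithelial markers the keratins KRT8 and KRT18 reached 3 in both lines and EPCAM in JJN3. Their sum was 12.18 to 12.28 in INA6 knockdown and 12.88 to 13.23 in INA6 non-targeting libraries, and 26.4 to 26.5 in JJN3 knockdown and 25.6 to 25.9 in JJN3 non-targeting libraries. Of the 2 tested in INA6 1 fell, at −0.62 (limma adjusted p = 1.26e-07), and of the 3 tested in JJN3 2 rose and 0 fell. LUM is listed at 0 in both, EPCAM in INA6 and PDGFRB in JJN3. EIF4A1, a translation factor every cell uses, is also listed at 0 in all libraries, so a listed 0 does not show absence. The part of these markers in the results on mitotic genes was not tested.

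In INA6 the mitotic genes were mostly higher with the KANSL2 guide, and in JJN3 they were mostly at or below the non-targeting level. Of the 33 genes 17 rose in INA6 (51.5%), where 24.7% of all tested symbols were called higher, and 2 fell (6.06%), where 24.0% were called lower. In JJN3 2 rose (6.06%, against 25.5% of all tested symbols called higher) and 10 fell (30.3%, against 25.5% called lower), so that the share that fell in JJN3 was close to that of all symbols. The median difference of the 33 was 0.12 in INA6, where the median of all tested symbols was 0.00094, and −0.081 in JJN3, where it was 0.0010. Single differences ran between −0.19 and 0.40 in INA6, with 29 above 0 and 4 below, and between −0.44 and 0.13 in JJN3, with 10 above 0 and 23 below. The 3 knockdown values lay all above the 3 non-targeting values for 18 genes in INA6 (54.5%, against 27.7% of tested symbols) and all below for 2 (6.06%, against 27.4%). In JJN3 they lay all above for 2 genes (6.06%, against 28.4%) and all below for 13 (39.4%, against 27.7%). When every library was centred on its median, all differences moved up by 0.04 in INA6 and 0.03 in JJN3. The split in INA6 was then 24 higher and 1 lower, with 31.2% of all symbols higher and 19.2% lower, and in JJN3 3 higher and 8 lower, with 30.7% higher and 20.9% lower.

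**Figure D1:**
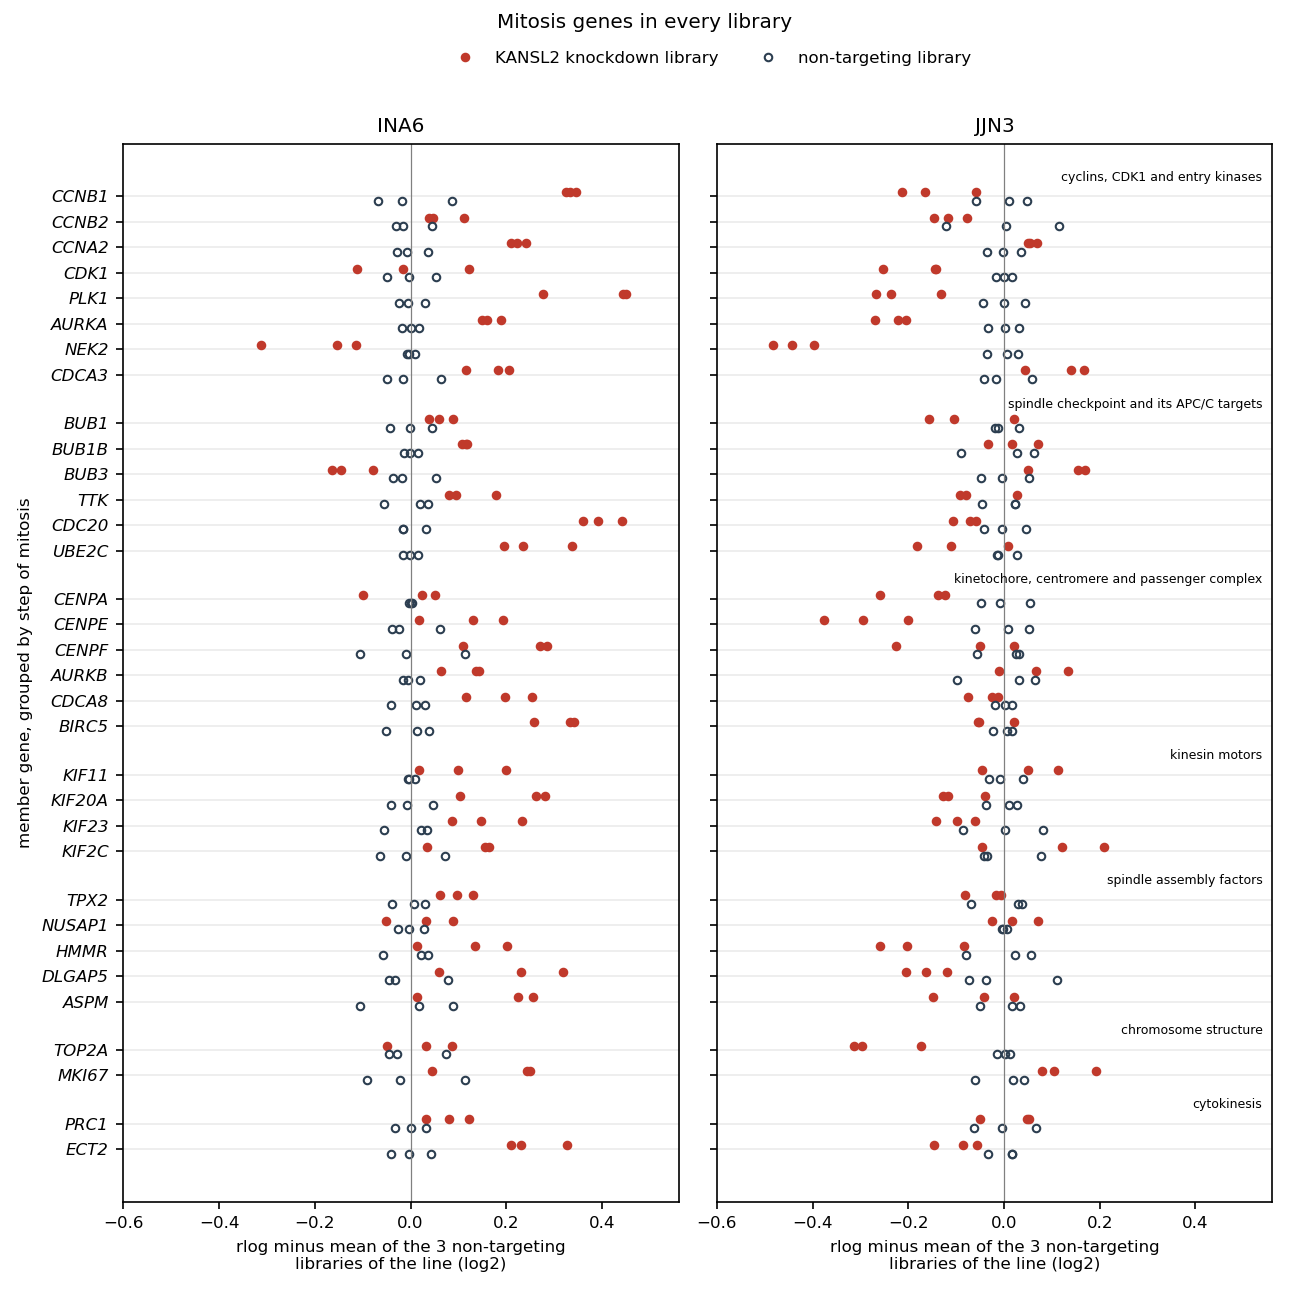
The 33 mitotic genes in every library, 1 panel per line and 1 row per gene grouped by step, with filled points for the 3 KANSL2 knockdown libraries drawn above open points for the 3 non-targeting libraries; the horizontal axis is rlog minus the mean of the 3 non-targeting libraries of the line (log2). CDC20, PLK1 and CCNB1 lie to the right in all 3 INA6 knockdown libraries, and NEK2 lies farthest to the left in the JJN3 knockdown libraries.

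Promoters of mitotic genes are known for 2 short elements. The cell cycle genes homology region (CHR, searched as TTTGAA or its complement TTCAAA) is the DNA element through which the DREAM complex and its activating counterpart are known to act, and CCAAT (or ATTGG on the other strand) is the element bound by NF-Y. In RefSeq windows of 300 bases around the annotated start (GRCh38.p14), which were given for 27 of the 33 genes, the CHR letters occurred in 19 (70.4%), against 9.68% of the 8742 promoters of symbols tested in both lines and 15.4% of all 27305 promoters. CCAAT occurred in 24 of the 27 (88.9%), against 37.4% and 35.7%, and both motifs occurred in 18 (66.7%), against 4.18% of promoters of tested symbols. Windows of G1/S and replication genes held the CHR letters in 2 of 38 cases (5.26%) and CCAAT in 20 (52.6%). A CHR and a CCAAT match shared letters in 2 of the 27 windows, and a match describes the window only. Among genes whose difference was called between lines 10 of 15 held the CHR letters, and among the others 9 of 12. AURKA, BUB3, TTK, UBE2C, BIRC5 and TPX2 had no entry in the promoter table. CENPE, which fell in JJN3 by more than TOP2A (−0.29 and −0.26), and KIF2C held neither motif in their windows and are not shown. The 250 bases before the annotated start are shown for 5 genes picked as examples: PLK1 and CDC20 with the largest INA6 differences, CCNB1, which rose in INA6 and fell in JJN3, NEK2, which fell in both, and TOP2A, which fell in JJN3. They are written 5′ to 3′ in the direction of transcription, with capitals marking the CHR and CCAAT letters on either strand.
PLK1: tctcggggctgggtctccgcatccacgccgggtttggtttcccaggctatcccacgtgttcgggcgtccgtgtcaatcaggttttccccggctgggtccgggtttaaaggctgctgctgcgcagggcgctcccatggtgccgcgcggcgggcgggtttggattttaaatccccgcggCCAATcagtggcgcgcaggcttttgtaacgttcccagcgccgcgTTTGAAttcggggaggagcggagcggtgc
CDC20: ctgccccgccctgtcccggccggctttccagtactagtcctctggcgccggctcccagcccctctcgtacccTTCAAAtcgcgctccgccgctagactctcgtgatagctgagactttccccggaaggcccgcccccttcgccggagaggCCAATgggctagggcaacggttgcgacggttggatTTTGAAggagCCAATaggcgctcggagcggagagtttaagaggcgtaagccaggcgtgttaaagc
CCNB1: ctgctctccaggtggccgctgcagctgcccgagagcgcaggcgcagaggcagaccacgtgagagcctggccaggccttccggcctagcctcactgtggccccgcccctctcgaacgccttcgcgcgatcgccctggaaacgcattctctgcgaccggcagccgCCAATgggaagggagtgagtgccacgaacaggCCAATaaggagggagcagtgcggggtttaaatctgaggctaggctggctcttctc
NEK2: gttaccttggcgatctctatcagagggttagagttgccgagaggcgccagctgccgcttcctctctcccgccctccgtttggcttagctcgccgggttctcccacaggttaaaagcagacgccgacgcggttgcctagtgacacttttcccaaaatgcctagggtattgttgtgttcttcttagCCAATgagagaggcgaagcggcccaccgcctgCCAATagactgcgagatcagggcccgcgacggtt
TOP2A: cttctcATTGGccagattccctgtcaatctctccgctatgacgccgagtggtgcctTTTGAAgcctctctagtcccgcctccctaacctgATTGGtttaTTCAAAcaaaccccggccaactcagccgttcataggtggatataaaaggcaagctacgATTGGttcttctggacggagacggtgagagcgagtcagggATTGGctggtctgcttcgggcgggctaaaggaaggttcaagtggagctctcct

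The PLK1 stretch (chr16:23678639-23678888, plus strand) held a CCAAT match that begins 73 bases and a CHR match that begins 29 bases before the start. In CDC20 (chr1:43358731-43358980, plus strand) CHR matches begin 178 and 65 bases and CCAAT matches 100 and 55 bases before it. CCNB1 (chr5:69166900-69167149, plus strand) and NEK2 (chr1:211675622-211675871, minus strand) each held 2 CCAAT matches, at 87 and 55 bases in CCNB1 and at 66 and 34 bases in NEK2, and no CHR letters. TOP2A (chr17:40417897-40418146, minus strand) held CHR matches at 194 and 151 bases and CCAAT matches at 244, 160, 93 and 53 bases. PLK1, CDC20 and CCNB1, the genes with the largest line differences, thus differ in the CHR letters searched and share CCAAT. Other spellings of the element were not searched, so CCNB1 and NEK2 are not shown to lack it.

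The counts by step stand against 24.7% higher and 24.0% lower of all tested symbols in INA6. In JJN3 they stand against 25.5% in each direction. Steps hold few genes, so a share near these is no result about the step. Among the cyclins, CDK1 and kinases of mitotic entry, 5 of 8 rose and 1 fell in INA6 (62.5% and 12.5%). In JJN3 none rose and 5 of 8 fell (0% and 62.5%). The median difference of this step was 0.17 in INA6 and −0.16 in JJN3. PLK1 (chr16:23678889-23690367), the polo-like kinase of centrosome maturation and spindle assembly, had 11.77, 11.94 and 11.94 in the INA6 KANSL2 knockdown libraries, against 11.52, 11.47 and 11.49 in the INA6 non-targeting libraries. All 3 knockdown values stood above all 3 non-targeting values, with means of 11.88 ± 0.0985 in the knockdown libraries and 11.49 ± 0.0271 in the non-targeting libraries (SD, n = 3 each). The difference was 0.39 ± 0.047 (SE, limma adjusted p = 9.36e-07), or 131% of the non-targeting level. In JJN3 PLK1 had 10.25, 10.15 and 10.12 in the JJN3 knockdown libraries and 10.34, 10.39 and 10.43 in the JJN3 non-targeting libraries, again without overlap but with the knockdown libraries low. The gene fell there, at −0.21 ± 0.0442 (SE, limma adjusted p = 0.000196). 

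CCNB1 (chr5:69167150-69178245) encodes cyclin B1, the partner that activates CDK1 for entry into mitosis. It had 9.85, 9.84 and 9.83 in the INA6 KANSL2 knockdown libraries, against 9.48, 9.43 and 9.59 in the INA6 non-targeting libraries, and the 3 knockdown values lay within a narrow band above the others. The means were 9.84 ± 0.0103 in the knockdown libraries and 9.50 ± 0.0795 in the non-targeting libraries (SD, n = 3 each), and the difference was 0.33 ± 0.0499 (SE, limma adjusted p = 1.32e-05). In JJN3 CCNB1 had 8.22, 8.12 and 8.07 in the JJN3 knockdown libraries and 8.29, 8.23 and 8.33 in the JJN3 non-targeting libraries, with all knockdown values lower, at −0.15 ± 0.0537 (SE, limma adjusted p = 0.024). That JJN3 call was lost with median centring (−0.12) or quantile normalisation (−0.13) and without knockdown replicate 2 (−0.14), knockdown replicate 3 (−0.11), non-targeting replicate 1 (−0.14) or non-targeting replicate 3 (−0.12), with adjusted p from 0.00476 to 0.104 over the 12 alternatives. The closely related cyclin B2 gene CCNB2 had 9.28, 9.35 and 9.29 in the INA6 KANSL2 knockdown libraries, against 9.22, 9.21 and 9.28 in the INA6 non-targeting libraries, where the groups touched and the difference was 0.066 (adjusted p = 0.285). In JJN3 CCNB2 was at −0.11 (adjusted p = 0.0893), so it passed in neither line with the main settings. Without non-targeting replicate 1 it passed in JJN3.

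AURKA (chr20:56369390-56392215), the Aurora kinase of spindle poles, had 10.49, 10.53 and 10.50 in the INA6 KANSL2 knockdown libraries, against 10.32, 10.36 and 10.34 in the INA6 non-targeting libraries. It rose by 0.17 ± 0.0434 (SE, limma adjusted p = 0.00317). Its values in JJN3 were 8.65, 8.59 and 8.63 in the JJN3 knockdown libraries and 8.86, 8.89 and 8.82 in the JJN3 non-targeting libraries, with every knockdown library lower. In this line it fell, at −0.23 ± 0.0479 (SE, limma adjusted p = 0.000167). The groups did not overlap in either line. CCNA2, cyclin A2 of S phase and G2, had 10.70, 10.72 and 10.69 in the INA6 KANSL2 knockdown libraries, against 10.52, 10.47 and 10.45 in the INA6 non-targeting libraries, without overlap. It rose by 0.22 ± 0.0433 (SE, limma adjusted p = 0.000217). Its JJN3 values were 9.30, 9.30 and 9.32 in the JJN3 knockdown libraries and 9.25, 9.21 and 9.29 in the JJN3 non-targeting libraries, all higher with the knockdown by a small amount that did not pass, 0.057 (adjusted p = 0.295). CDCA3, a gene linked to mitotic entry, rose in INA6 by 0.17 ± 0.0569 (SE, limma adjusted p = 0.0182). This call of CDCA3 was lost without knockdown replicate 2 (0.16), knockdown replicate 3 (0.15), non-targeting replicate 1 (0.14) or non-targeting replicate 2 (0.16), with adjusted p from 0.00495 to 0.0828 over the 12 alternatives. In JJN3 CDCA3 was at 0.12 (adjusted p = 0.0876).

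CDK1 and NEK2 were not higher in INA6. CDK1 (chr10:60778331-60794852), the kinase at the centre of mitotic entry, had 10.43, 10.29 and 10.20 in the INA6 KANSL2 knockdown libraries, against 10.36, 10.26 and 10.30 in the INA6 non-targeting libraries, with overlapping groups and a difference of −0.0019 (adjusted p = 0.981). JJN3 gave 8.81, 8.81 and 8.70 in the JJN3 knockdown libraries and 8.97, 8.95 and 8.94 in the JJN3 non-targeting libraries, all knockdown values lower. There it fell, at −0.18 ± 0.0482 (SE, limma adjusted p = 0.00259), to 88.3% of the non-targeting level. NEK2 (chr1:211658256-211675621), a kinase that separates centrosomes, had 9.29, 9.25 and 9.09 in the INA6 KANSL2 knockdown libraries, against 9.40, 9.40 and 9.42 in the INA6 non-targeting libraries. It fell, at −0.19 ± 0.0543 (SE, limma adjusted p = 0.00557). In JJN3 NEK2 had 7.07, 6.98 and 7.02 in the JJN3 knockdown libraries and 7.49, 7.43 and 7.47 in the JJN3 non-targeting libraries. The gene fell there, at −0.44 ± 0.0555 (SE, limma adjusted p = 1.17e-07), to 73.7%, the largest difference of any mitotic gene of the 33 in that line. The knockdown libraries were lower than all non-targeting libraries in both lines.

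In the spindle checkpoint and its APC/C targets CDC20 and UBE2C rose and BUB3 fell in INA6 (33.3% and 16.7%), and BUB1, BUB1B and TTK did not pass. In JJN3 BUB3 alone rose and none fell (16.7% and 0%). CDC20 (chr1:43358981-43363203), the activator that the checkpoint withholds from the APC/C, had 11.28, 11.36 and 11.31 in the INA6 KANSL2 knockdown libraries, against 10.90, 10.95 and 10.90 in the INA6 non-targeting libraries. Its means were 11.32 ± 0.041 in the knockdown libraries and 10.92 ± 0.0271 in the non-targeting libraries (SD, n = 3 each), a gap several times the spread, and the difference was 0.40 ± 0.0426 (SE, limma adjusted p = 1.85e-07), the largest of the 33 in INA6. In JJN3 CDC20 had 9.74, 9.69 and 9.73 in the JJN3 knockdown libraries and 9.76, 9.84 and 9.79 in the JJN3 non-targeting libraries. All knockdown values were lower, but the difference of −0.079 (adjusted p = 0.13) did not pass. UBE2C, the ubiquitin-conjugating enzyme of the APC/C, had 7.57, 7.71 and 7.61 in the INA6 KANSL2 knockdown libraries, against 7.39, 7.38 and 7.36 in the INA6 non-targeting libraries, without overlap. It rose by 0.26 ± 0.061 (SE, limma adjusted p = 0.00158). In JJN3 the UBE2C groups overlapped, at −0.095 (adjusted p = 0.17).

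BUB3 (chr10:123154402-123170467), which recruits checkpoint proteins to kinetochores, was the gene with the opposite pattern. It had 12.30, 12.22 and 12.24 in the INA6 KANSL2 knockdown libraries, against 12.37, 12.35 and 12.44 in the INA6 non-targeting libraries, all knockdown values lower. It fell, at −0.13 ± 0.0417 (SE, limma adjusted p = 0.0141). In JJN3 it had 10.62, 10.63 and 10.51 in the JJN3 knockdown libraries and 10.46, 10.42 and 10.51 in the JJN3 non-targeting libraries, with groups that met at 1 library. There it rose by 0.12 ± 0.0434 (SE, limma adjusted p = 0.0171). Its INA6 call was lost with median centring (−0.092) and without knockdown replicate 2 (−0.11) or non-targeting replicate 3 (−0.10), with adjusted p from 0.00134 to 0.0911 over the 12 alternatives. Its JJN3 call was lost with quantile normalisation (0.034) and without knockdown replicate 2 (0.10) or non-targeting replicate 2 (0.10), with adjusted p from 0.00255 to 0.551 over the 12 alternatives. The checkpoint kinase BUB1 was at 0.062 (adjusted p = 0.297) in INA6 and −0.081 (adjusted p = 0.222) in JJN3. BUB1B, which encodes the inhibitor BubR1, had 9.37, 9.38 and 9.38 in the INA6 KANSL2 knockdown libraries, against 9.26, 9.25 and 9.28 in the INA6 non-targeting libraries. These did not overlap, but the difference of 0.11 (adjusted p = 0.0529) missed the threshold, and in JJN3 it was at 0.018 (adjusted p = 0.799). With a minimum mean of 5 or with median centring BUB1B passed in INA6. TTK, the kinase that starts checkpoint signalling, was at 0.12 (adjusted p = 0.116) in INA6 and −0.048 (adjusted p = 0.485) in JJN3. With median centring or quantile normalisation TTK passed in INA6, where its groups did not overlap.

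Of the 6 kinetochore, centromere and passenger complex genes 4 rose in INA6 and none fell (66.7% and 0%). In JJN3 none rose and 2 fell (0% and 33.3%). The passenger complex, which corrects wrong attachments, is represented by AURKB, CDCA8 and BIRC5, and all 3 rose in INA6. BIRC5 (chr17:78214253-78225635), which encodes survivin, had 12.08, 12.16 and 12.17 in the INA6 KANSL2 knockdown libraries, against 11.84, 11.87 and 11.78 in the INA6 non-targeting libraries. It rose by 0.31 ± 0.0422 (SE, limma adjusted p = 4.21e-06), to 124% of the non-targeting level without overlap. Its JJN3 values were 10.33, 10.40 and 10.32 in the JJN3 knockdown libraries and 10.40, 10.35 and 10.38 in the JJN3 non-targeting libraries, with groups that overlapped and a difference of −0.028 (adjusted p = 0.593). CDCA8, the borealin gene, had 11.53, 11.48 and 11.39 in the INA6 KANSL2 knockdown libraries, against 11.24, 11.29 and 11.31 in the INA6 non-targeting libraries, without overlap. It rose by 0.19 ± 0.0447 (SE, limma adjusted p = 0.00149). This call of CDCA8 was lost with quantile normalisation (0.094), with adjusted p from 0.000218 to 0.0881 over the 12 alternatives. The kinase AURKB had 9.97, 9.97 and 9.90 in the INA6 KANSL2 knockdown libraries, against 9.82, 9.85 and 9.83 in the INA6 non-targeting libraries, without overlap. It rose by 0.11 ± 0.0463 (SE, limma adjusted p = 0.0458), close to the threshold. That call was lost with no filter (0.11), quantile normalisation (0.063) or no variance trend (0.11) and without knockdown replicate 1 (0.10), knockdown replicate 2 (0.10), non-targeting replicate 1 (0.11), non-targeting replicate 2 (0.12) or non-targeting replicate 3 (0.11), with adjusted p from 0.01 to 0.273 over the 12 alternatives. In JJN3 CDCA8 was at −0.038 (adjusted p = 0.492) and AURKB at 0.064 (adjusted p = 0.342).

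The centromere and kinetochore genes moved less evenly. CENPF, a large kinetochore protein of G2, had 12.10, 12.08 and 11.92 in the INA6 KANSL2 knockdown libraries, against 11.71, 11.80 and 11.93 in the INA6 non-targeting libraries. It rose by 0.22 ± 0.0536 (SE, limma adjusted p = 0.00179) although knockdown replicate 3 lay below the highest non-targeting library. In JJN3 CENPF was at −0.085 (adjusted p = 0.156). CENPE (chr4:103105811-103198343), the kinesin that carries chromosomes to the spindle equator, had 9.13, 9.06 and 8.95 in the INA6 KANSL2 knockdown libraries, against 8.91, 8.90 and 9.00 in the INA6 non-targeting libraries, which overlapped, at 0.11 (adjusted p = 0.0975). In JJN3 CENPE had 7.79, 7.70 and 7.62 in the JJN3 knockdown libraries and 7.93, 8.00 and 8.05 in the JJN3 non-targeting libraries without overlap. In this line it fell, at −0.29 ± 0.0563 (SE, limma adjusted p = 7.59e-05), to 81.7%. CENPA, the histone H3 variant that marks centromeres, was at −0.0084 (adjusted p = 0.91) in INA6. The JJN3 values were 7.33, 7.19 and 7.31 in the JJN3 knockdown libraries and 7.44, 7.50 and 7.40 in the JJN3 non-targeting libraries, all lower with the knockdown. There it fell, at −0.17 ± 0.0571 (SE, limma adjusted p = 0.0121). This call of CENPA was lost with quantile normalisation (−0.12) and without knockdown replicate 2 (−0.13) or non-targeting replicate 2 (−0.15), with adjusted p from 0.00708 to 0.0988 over the 12 alternatives.

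Of the 4 genes listed as kinesin motors 2 rose in INA6 (50%) and none passed in JJN3. The kinesin CENPE, which fell in JJN3, is counted with the kinetochore genes. KIF20A, a motor of the central spindle, had 8.73, 8.72 and 8.56 in the INA6 KANSL2 knockdown libraries, against 8.50, 8.41 and 8.45 in the INA6 non-targeting libraries, without overlap. It rose by 0.22 ± 0.0584 (SE, limma adjusted p = 0.00426). Its RefSeq span overlaps that of the APC/C gene CDC23, which was at 0.15 (adjusted p = 0.0286) in INA6 and −0.27 (adjusted p = 8.2e-05) in JJN3, and the strand used in counting is not stated. KIF23, the motor of the centralspindlin complex, had 8.76, 8.85 and 8.70 in the INA6 KANSL2 knockdown libraries, against 8.65, 8.56 and 8.64 in the INA6 non-targeting libraries, without overlap. It rose by 0.16 ± 0.0556 (SE, limma adjusted p = 0.0252). This call of KIF23 was lost without knockdown replicate 2 (0.12) or non-targeting replicate 2 (0.13), with adjusted p from 0.0072 to 0.153 over the 12 alternatives. In JJN3 KIF20A was at −0.094 (adjusted p = 0.164), with every knockdown value lower, and KIF23 at −0.10 (adjusted p = 0.123). KIF11, the motor that pushes spindle poles apart, was at 0.11 (adjusted p = 0.0725) in INA6 and 0.04 (adjusted p = 0.513) in JJN3. KIF2C, which takes microtubule ends apart, was at 0.12 (adjusted p = 0.067) in INA6 and 0.094 (adjusted p = 0.173) in JJN3. Neither motor passed in either line with the main settings. In INA6 both passed with median centring, KIF11 also without knockdown replicate 3, and KIF2C without knockdown replicate 1 or non-targeting replicate 1. In JJN3 KIF2C passed without knockdown replicate 1.

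Among the 5 spindle assembly factors 2 rose in INA6 (40%) and 2 fell in JJN3 (40%), and DLGAP5 was in both counts. DLGAP5 (chr14:55148135-55191585), which stabilises kinetochore microtubules, had 9.67, 9.58 and 9.41 in the INA6 KANSL2 knockdown libraries, against 9.32, 9.31 and 9.43 in the INA6 non-targeting libraries. Knockdown replicate 3 lay below the highest non-targeting library, and the gene rose by 0.20 ± 0.0597 (SE, limma adjusted p = 0.0078). Its values in JJN3 were 6.46, 6.42 and 6.38 in the JJN3 knockdown libraries and 6.55, 6.51 and 6.70 in the JJN3 non-targeting libraries, all lower with the knockdown. The gene fell there, at −0.16 ± 0.0589 (SE, limma adjusted p = 0.0218). The JJN3 call was lost with median centring (−0.14) or quantile normalisation (−0.087) and without knockdown replicate 2 (−0.16), knockdown replicate 3 (−0.14) or non-targeting replicate 3 (−0.11), with adjusted p from 0.0142 to 0.229 over the 12 alternatives. ASPM, a spindle pole protein, had 11.44, 11.41 and 11.20 in the INA6 KANSL2 knockdown libraries, against 11.08, 11.20 and 11.27 in the INA6 non-targeting libraries, with overlap at knockdown replicate 3. It rose by 0.17 ± 0.0575 (SE, limma adjusted p = 0.0217). That call was lost with no filter (0.17), quantile normalisation (0.08) or no variance trend (0.17) and without knockdown replicate 1 (0.12), knockdown replicate 2 (0.14), non-targeting replicate 1 (0.11) or non-targeting replicate 2 (0.17), with adjusted p from 0.000421 to 0.266 over the 12 alternatives. In JJN3 ASPM was at −0.056 (adjusted p = 0.349).

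HMMR, a spindle protein that is also known as a hyaluronan receptor, was at 0.12 (adjusted p = 0.0792) in INA6. JJN3 gave 7.66, 7.54 and 7.49 in the JJN3 knockdown libraries and 7.77, 7.66 and 7.80 in the JJN3 non-targeting libraries. The knockdown values were lower without overlap, although knockdown replicate 1 came within rounding of non-targeting replicate 2. In this line it fell, at −0.18 ± 0.0579 (SE, limma adjusted p = 0.00975). The call was lost with quantile normalisation (−0.14) and without knockdown replicate 3 (−0.14) or non-targeting replicate 3 (−0.15), with adjusted p from 0.00162 to 0.0588 over the 12 alternatives. TPX2, which activates AURKA on the spindle, had 11.20, 11.23 and 11.16 in the INA6 KANSL2 knockdown libraries, against 11.13, 11.07 and 11.11 in the INA6 non-targeting libraries. These did not overlap, but the difference of 0.10 (adjusted p = 0.067) did not pass, and in JJN3 it was at −0.035 (adjusted p = 0.529). NUSAP1, a microtubule bundling protein, was at 0.023 (adjusted p = 0.691) in INA6 and 0.021 (adjusted p = 0.705) in JJN3.

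TOP2A and MKI67, the genes of chromosome structure, behaved differently from each other in JJN3. TOP2A (chr17:40388525-40417896), the topoisomerase that untangles sister chromatids, had 11.54, 11.48 and 11.40 in the INA6 KANSL2 knockdown libraries, against 11.41, 11.42 and 11.52 in the INA6 non-targeting libraries, which overlapped, at 0.023 (adjusted p = 0.7). In JJN3 it had 10.80, 10.68 and 10.66 in the JJN3 knockdown libraries and 10.99, 10.96 and 10.98 in the JJN3 non-targeting libraries, a clear gap with the knockdown libraries low. There it fell, at −0.26 ± 0.0425 (SE, limma adjusted p = 7.07e-06), to 83.4% of the non-targeting level. MKI67 (chr10:128096659-128126423), which encodes the Ki-67 protein that coats mitotic chromosomes and is the routine marker of cycling cells, had 13.18, 13.17 and 12.97 in the INA6 KANSL2 knockdown libraries, against 12.84, 12.91 and 13.04 in the INA6 non-targeting libraries, with knockdown replicate 3 inside the non-targeting range. It rose by 0.18 ± 0.054 (SE, limma adjusted p = 0.00916). The JJN3 values were 12.24, 12.16 and 12.13 in the JJN3 knockdown libraries and 11.99, 12.09 and 12.07 in the JJN3 non-targeting libraries, all higher with the knockdown. There it rose by 0.13 ± 0.0408 (SE, limma adjusted p = 0.0111). The INA6 call of MKI67 was lost with quantile normalisation (0.10) and without knockdown replicate 2 (0.15) or non-targeting replicate 1 (0.13), with adjusted p from 0.000243 to 0.125 over the 12 alternatives. Its JJN3 call was lost with quantile normalisation (0.0086) and without knockdown replicate 1 (0.092) or non-targeting replicate 1 (0.10), with adjusted p from 0.00265 to 0.88 over the 12 alternatives.

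Of the 2 cytokinesis genes ECT2 rose in INA6. ECT2, the exchange factor that activates RhoA at the cleavage furrow, had 10.06, 9.96 and 9.94 in the INA6 KANSL2 knockdown libraries, against 9.77, 9.69 and 9.73 in the INA6 non-targeting libraries, without overlap. It rose by 0.26 ± 0.0488 (SE, limma adjusted p = 0.000195), to 119% of the non-targeting level. Its values in JJN3 were 7.85, 7.88 and 7.79 in the JJN3 knockdown libraries and 7.95, 7.90 and 7.95 in the JJN3 non-targeting libraries. All 3 knockdown values were lower, but the difference of −0.10 (adjusted p = 0.131) did not pass. PRC1, which bundles the microtubules of the midzone, was at 0.078 (adjusted p = 0.2) in INA6 and 0.017 (adjusted p = 0.815) in JJN3.

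The difference between lines was tested gene by gene, as the INA6 difference minus the JJN3 difference divided by the standard error of that contrast (from both squared SEs), and adjusted over the 11137 symbols tested in both lines. It passed for 19 of the 33 genes (57.6%, against 30.0% of all symbols). For 18 of them the INA6 difference was above the JJN3 difference (54.5%, against 15.6% of all symbols), and for BUB3 it was below (3.03%, against 14.4%). The INA6 difference was the higher one for 32 of the 33 genes (97.0%), and for 54.0% of all symbols. The largest line difference was that of PLK1, at 0.60 ± 0.0645 (SE, adjusted p = 1.07e-10), followed by CCNB1 at 0.48 ± 0.0733 (SE, adjusted p = 8.43e-07) and CDC20 at 0.48 ± 0.0609 (SE, adjusted p = 1.3e-08). By step the line difference passed with INA6 above for 5 of 8 entry genes, 2 of 6 checkpoint genes, 4 of 6 kinetochore and passenger genes, 2 of 4 motors, 3 of 5 spindle factors, 1 of the 2 chromosome structure genes and 1 of the 2 cytokinesis genes. The median line difference of the 33 was 0.22, against 0.016 over all symbols. On the rlog scale the knockdown libraries held 76.4% of the non-targeting KANSL2 level in INA6 and 43.1% in JJN3. The part of this in the line difference was not tested. The 2 tables were transformed separately, so the shrinkage of differences can also differ between the lines, and its part was not tested either.

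Calls in opposite directions were made for 5 genes. PLK1, AURKA, CCNB1 and DLGAP5 rose in INA6 and fell in JJN3, which is 12.1% of the 33 where 1.52% of all symbols did so, and BUB3 fell in INA6 and rose in JJN3 (3.03%, against 2.39%). Calls in the same direction were made for 2 genes, with MKI67 up and NEK2 down in both lines (6.06%, against 26.5% of all symbols). A further 12 genes rose in INA6 and did not pass in JJN3, 5 fell in JJN3 and did not pass in INA6, and 9 passed in neither line. For these counts the share of all symbols was not computed, so no result about the 33 genes is read from them. The 5 that fell in JJN3 alone by these calls were CDK1, CENPA, CENPE, HMMR and TOP2A, of which CENPE, HMMR and TOP2A passed the test between lines and CDK1 (adjusted p = 0.0563) and CENPA (0.106) did not. Across the 33 genes the differences in INA6 and JJN3 had a Pearson r of 0.125, and across all symbols 0.492; these are descriptions across genes, which are not independent, and the 33 span a narrow range.

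**Figure D2:**
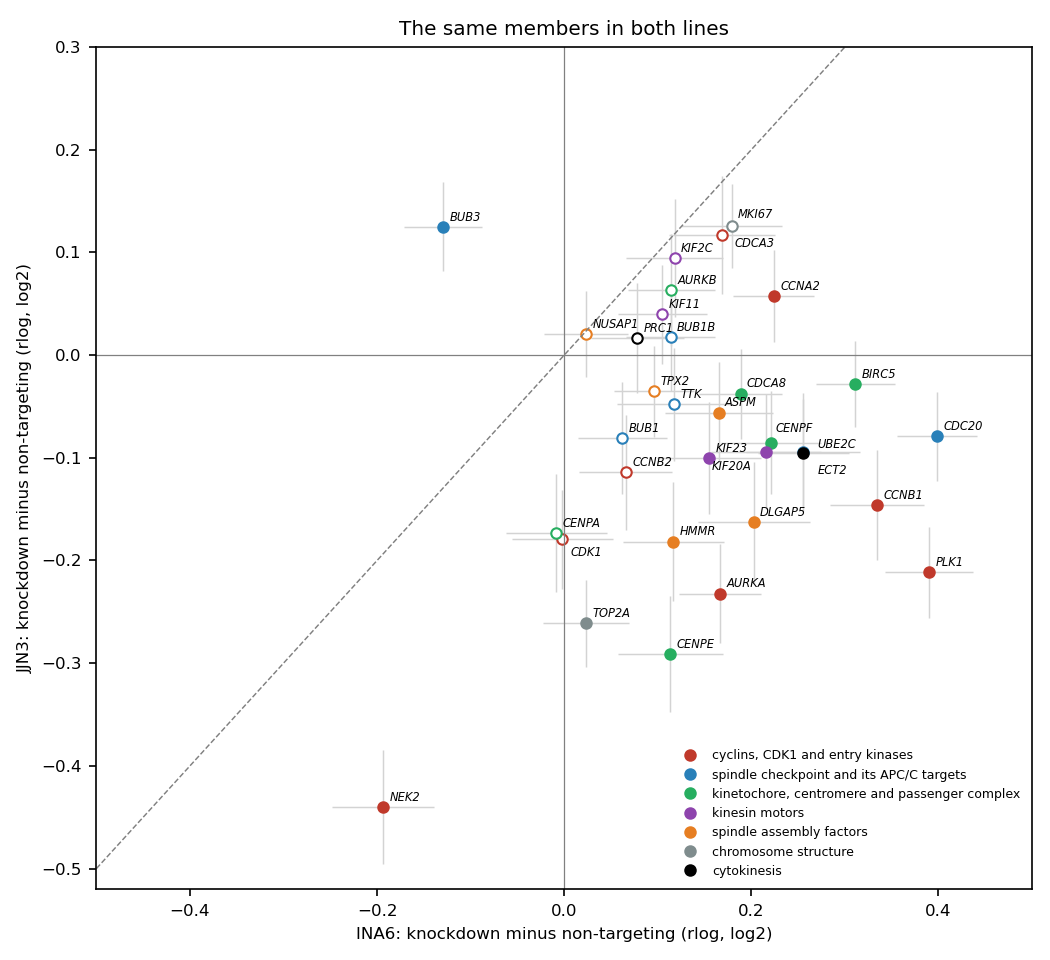
Difference between knockdown and non-targeting libraries for each of the 33 genes in INA6 and in JJN3, both in log2 (rlog) units, with bars of 1 SE, filled points for genes that passed the test between lines and open points for the others, and a dashed line of equal differences. All genes other than BUB3 lie on the side where the INA6 difference is the higher one. PLK1 lies farthest from the line, followed by CCNB1 and CDC20, and NEK2 is lowest on the JJN3 axis.

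The libraries of an arm did not carry the mitotic genes at the same level. The median of the 33 genes, as a deviation from the non-targeting mean, was 0.18, 0.16 and 0.079 in INA6 knockdown replicates 1, 2 and 3, and between −0.015 and 0.0099 in the INA6 non-targeting libraries. In JJN3 it was −0.039, −0.075 and −0.11 in knockdown replicates 1, 2 and 3, and between −0.015 and 0.019 in the non-targeting libraries. Over all tested symbols the library medians lay within 0.003 of 0. Knockdown replicate 3 was the lowest of its arm for 22 of the 33 genes in INA6, against 36.4% of all symbols, and for 18 of the 33 in JJN3, against 35.1%. Knockdown replicate 1 was the highest of its arm for 19 of the 33 in INA6, against 38.6% of all symbols, and for 20 of the 33 in JJN3, against 35.6%. Without INA6 knockdown replicate 3 the INA6 median was 0.16 and 20 genes rose. The small counts moved with 1 library left out. In INA6 1 gene in place of 2 fell without knockdown replicate 2 or non-targeting replicate 3. In JJN3 1 in place of 2 rose without knockdown replicate 2, non-targeting replicate 1 or non-targeting replicate 2.

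**Figure D3:**
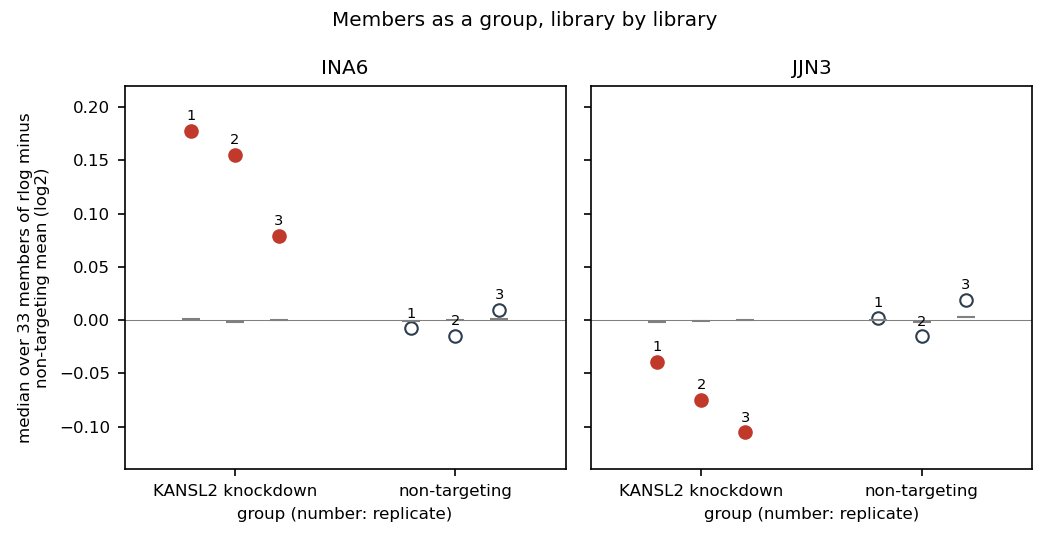
Median over the 33 mitotic genes of rlog minus the non-targeting mean (log2) in each of the 12 libraries, with filled points for KANSL2 knockdown, open points for non-targeting, the replicate number above each, and a grey tick for the median over all tested symbols. INA6 knockdown medians lie between 0.079 and 0.18 and JJN3 knockdown medians between −0.11 and −0.039, with replicate 3 lowest in each, while the ticks stay near 0.

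Outside the 33, a further 152 genes of the mitotic pathway were listed, of which 149 were tested in INA6 and 147 in JJN3. In INA6 60 rose and 13 fell (40.3% and 8.72%, against 24.7% and 24.0% of all tested symbols; median 0.086), and in JJN3 36 rose and 21 fell (24.5% and 14.3%, against 25.5% and 25.5%; median 0.026). The share that rose in JJN3 was near that of all symbols. The INA6 count that fell was 4 without knockdown replicate 2, and 8 without non-targeting replicate 1 or non-targeting replicate 3. The line difference passed for 24 of them with INA6 above and 6 with INA6 below, of the 147 tested in both (16.3% and 4.08%, against 15.6% and 14.4% of all symbols). The 46 G1/S and replication genes, which are expressed earlier in the cycle, had 36 up and 0 down in INA6 (78.3% and 0%; median 0.22) and 32 up and 1 down in JJN3 (69.6% and 2.17%; median 0.18). Their line difference passed for 8 with INA6 above and 7 with INA6 below (17.4% and 15.2%, near the shares of all symbols), with a median of 0.043, against 0.22 for the 33 mitotic genes. No test of the difference between the gene lists was made.

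Among the 15 regulators of G2/M transcription 7 rose and 1 fell in INA6 (46.7% and 6.67%), and 6 rose and 2 fell in JJN3 (40.0% and 13.3%). These shares, and those of the lists that follow, stand against 24.7% higher and 24.0% lower of all tested symbols in INA6, and 25.5% for each direction in JJN3. The gene of the pocket protein RBL2, a repressor subunit of DREAM, fell, at −0.52 ± 0.0515 (SE, limma adjusted p = 6.56e-08) in INA6 and −0.47 ± 0.0431 (SE, limma adjusted p = 4.02e-10) in JJN3, and the gene of its relative RBL1 rose by 0.25 (adjusted p = 0.000283) in INA6 and 0.38 (adjusted p = 2.52e-07) in JJN3. The activator gene MYBL2 rose by 0.38 ± 0.0405 (SE, limma adjusted p = 2.08e-07) in INA6 and 0.21 ± 0.0401 (SE, limma adjusted p = 8.31e-05) in JJN3, and passed between lines (adjusted p = 0.0188). With quantile normalisation the JJN3 value of MYBL2 was 0.11, and it passed. FOXM1, the forkhead activator of G2 genes, rose by 0.13 (adjusted p = 0.0246) in INA6 and 0.13 (adjusted p = 0.0253) in JJN3. Its INA6 call was lost with quantile normalisation (0.08) and without knockdown replicate 3 (0.11), non-targeting replicate 1 (0.13) or non-targeting replicate 2 (0.11), with adjusted p from 0.00481 to 0.151 over the 12 alternatives. Its JJN3 call was lost with quantile normalisation (0.10) and without knockdown replicate 1 (0.12), non-targeting replicate 1 (0.13) or non-targeting replicate 2 (0.10), with adjusted p from 0.00728 to 0.153 over the 12 alternatives. TFDP1, the partner of E2F factors, rose by 0.31 (adjusted p = 4.99e-06) in INA6. In JJN3 TFDP1 was at 0.041 (adjusted p = 0.387), where quantile normalisation turned its sign, and the line difference passed (adjusted p = 0.000254).

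E2F4 rose by 0.13 (adjusted p = 0.0305) in INA6 and 0.19 (adjusted p = 0.000186) in JJN3, where quantile normalisation gave 0.097, which passed. The INA6 call was lost with no filter (0.13), quantile normalisation (0.072) or no variance trend (0.13) and without knockdown replicate 2 (0.13), knockdown replicate 3 (0.10), non-targeting replicate 1 (0.14) or non-targeting replicate 3 (0.10), with adjusted p from 0.00594 to 0.212 over the 12 alternatives. E2F5 was at −0.15 (adjusted p = 0.0727) in INA6. In JJN3 E2F5 fell, at −0.14 (adjusted p = 0.0491). The E2F5 call was lost with no filter (−0.14), median centring (−0.12) or quantile normalisation (−0.10) and without knockdown replicate 2 (−0.068), knockdown replicate 3 (−0.15), non-targeting replicate 1 (−0.16), non-targeting replicate 2 (−0.13) or non-targeting replicate 3 (−0.14), with adjusted p from 0.00502 to 0.399 over the 12 alternatives. Of the core subunits of the complex, LIN52 rose by 0.18 (adjusted p = 0.00695) in INA6. In JJN3 LIN52 was at −0.068 (adjusted p = 0.313). LIN54 was at 0.054 (adjusted p = 0.405) in INA6 and rose by 0.13 (adjusted p = 0.0401) in JJN3. RBBP4 was at −0.019 (adjusted p = 0.751) in INA6 and rose by 0.13 (adjusted p = 0.0113) in JJN3. The LIN54 call was lost without knockdown replicate 1 (0.13), knockdown replicate 2 (0.12), knockdown replicate 3 (0.13), non-targeting replicate 1 (0.14) or non-targeting replicate 3 (0.10), with adjusted p from 0.0136 to 0.175 over the 12 alternatives. The RBBP4 call was lost with quantile normalisation (0.072) and without knockdown replicate 1 (0.10), with adjusted p from 0.00274 to 0.177 over the 12 alternatives. LIN9 was at 0.074 (adjusted p = 0.297) in INA6 and −0.046 (adjusted p = 0.538) in JJN3, and LIN37 at −0.07 (adjusted p = 0.359) in INA6 and 0.079 (adjusted p = 0.193) in JJN3. Of the NF-Y subunits NFYC rose by 0.30 (adjusted p = 3.04e-05) in INA6. In JJN3 NFYC was at 0.11 (adjusted p = 0.0844). NFYA was at −0.018 (adjusted p = 0.799) in INA6 and 0.053 (adjusted p = 0.348) in JJN3, and NFYB at 0.091 (adjusted p = 0.177) in INA6 and −0.02 (adjusted p = 0.794) in JJN3.

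Of 20 further entry phosphatases, kinases and CDK partners 12 rose and 1 fell in INA6 (60% and 5%), and 5 rose and 1 fell in JJN3 (25% and 5%). CDC25A, a phosphatase that activates CDKs, rose by 0.53 (adjusted p = 7.65e-09) in INA6 and 0.41 (adjusted p = 5.78e-09) in JJN3. The inhibitory kinases of CDK1 also rose: WEE1 by 0.43 (adjusted p = 4.38e-07) in INA6, with 0.064 (adjusted p = 0.328) in JJN3, and PKMYT1 by 0.31 (adjusted p = 4.41e-05) in INA6 and 0.44 (adjusted p = 5.38e-08) in JJN3. HASPIN, the kinase that marks histone H3 for the passenger complex, rose by 0.33 (adjusted p = 6.29e-06) in INA6 and 0.18 (adjusted p = 0.00572) in JJN3. Of 21 checkpoint and cohesion genes 11 rose and 0 fell in INA6 (52.4% and 0%), and 4 rose and 1 fell in JJN3 (19.0% and 4.76%). ESPL1, the separase gene, rose by 0.31 (adjusted p = 5.23e-06) in INA6 and 0.26 (adjusted p = 4.44e-05) in JJN3, the cohesin subunit gene STAG1 by 0.25 (adjusted p = 0.000607) in INA6 and 0.19 (adjusted p = 0.00171) in JJN3, and the sororin gene CDCA5 by 0.23 (adjusted p = 8.49e-05) in INA6 and 0.44 (adjusted p = 3.4e-10) in JJN3. MAD2L1BP, which helps to silence the checkpoint, rose by 0.30 (adjusted p = 7.23e-05) in INA6. In JJN3 MAD2L1BP was at 0.03 (adjusted p = 0.637). SGO2, a protector of cohesion, was at −0.11 (adjusted p = 0.15) in INA6. In JJN3 SGO2 fell, at −0.33 (adjusted p = 1.99e-05).

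The 17 APC/C genes had 6 up and 2 down in INA6 (35.3% and 11.8%), and 2 up and 3 down in JJN3 (11.8% and 17.6%). The subunit genes ANAPC7 and ANAPC5 rose in INA6, by 0.30 (adjusted p = 5.37e-05) and 0.26 (adjusted p = 0.000137), and in JJN3 ANAPC7 rose by 0.13 (adjusted p = 0.0272) and ANAPC5 was at −0.042 (adjusted p = 0.464). The JJN3 call of ANAPC7 was lost with quantile normalisation (0.10) and without knockdown replicate 2 (0.13), non-targeting replicate 1 (0.12) or non-targeting replicate 2 (0.092), with adjusted p from 0.00807 to 0.171 over the 12 alternatives. ANAPC16 fell, at −0.28 (adjusted p = 0.000104) in INA6 and −0.23 (adjusted p = 7.7e-05) in JJN3. CDC23 rose by 0.15 (adjusted p = 0.0286) in INA6. In JJN3 CDC23 fell, at −0.27 (adjusted p = 8.2e-05), with a line difference at adjusted p = 2.13e-05. Its INA6 call was lost without knockdown replicate 1 (0.13), knockdown replicate 2 (0.13), non-targeting replicate 1 (0.14) or non-targeting replicate 3 (0.14), with adjusted p from 0.00573 to 0.127 over the 12 alternatives. FBXO5, the inhibitor of the APC/C in S phase and G2, was at 0.09 (adjusted p = 0.184) in INA6. In JJN3 FBXO5 rose by 0.21 (adjusted p = 0.00104).

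Of 33 further centromere and kinetochore genes 11 rose and 4 fell of 32 tested in INA6 (34.4% and 12.5%), and 8 rose and 5 fell of 31 tested in JJN3 (25.8% and 16.1%). ZWINT, a kinetochore scaffold, rose by 0.34 (adjusted p = 2.7e-06) in INA6 and 0.14 (adjusted p = 0.0108) in JJN3, and CENPN, which reads the centromeric nucleosome, by 0.31 (adjusted p = 1.94e-05) in INA6 and 0.21 (adjusted p = 0.000259) in JJN3. SKA3, of the complex that tracks microtubule ends, rose by 0.28 (adjusted p = 0.000237) in INA6. In JJN3 SKA3 was at 0.095 (adjusted p = 0.15). The share of this list that rose in JJN3 was near that of all symbols (25.5%), and the share that fell was below it (25.5%). Its genes with the largest JJN3 differences went in both directions. CENPT rose by 0.46 (adjusted p = 8.7e-09), while CENPH fell, at −0.41 (adjusted p = 3.64e-07) and NSL1, a subunit of the MIS12 complex, at −0.44 (adjusted p = 9.29e-07). In INA6 CENPT was at 0.078 (adjusted p = 0.192), CENPH at −0.10 (adjusted p = 0.0889) and NSL1 at −0.0094 (adjusted p = 0.894).

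Of the 8 condensin genes, which compact chromosomes, 5 rose and 0 fell in INA6 (62.5% and 0%; median 0.22), and 5 rose and 1 fell in JJN3 (62.5% and 12.5%; median 0.16). NCAPH2 rose by 0.30 (adjusted p = 0.00018) in INA6 and 0.22 (adjusted p = 0.00159) in JJN3, SMC4 by 0.29 (adjusted p = 1.96e-05) in INA6 and 0.18 (adjusted p = 0.00132) in JJN3, NCAPG by 0.24 (adjusted p = 0.00106) in INA6 and 0.24 (adjusted p = 0.000863) in JJN3, and NCAPH by 0.20 (adjusted p = 0.00268) in INA6 and 0.26 (adjusted p = 0.00057) in JJN3. The JJN3 call of SMC4 was lost with quantile normalisation (0.078), with adjusted p from 0.000262 to 0.178 over the 12 alternatives. Of 28 further kinesins and spindle factors 5 rose and 4 fell in INA6 (19.2% and 15.4%), and 4 rose and 7 fell in JJN3 (15.4% and 26.9%), of 26 tested in each. TACC3, which crosslinks spindle microtubules, rose by 0.30 (adjusted p = 1.14e-05) in INA6 and 0.16 (adjusted p = 0.00462) in JJN3, and the spindle gene PSRC1 fell, at −0.22 (adjusted p = 0.00639) in INA6 and −0.37 (adjusted p = 7.54e-07) in JJN3. KIF14, a motor of cytokinesis, rose by 0.15 (adjusted p = 0.019) in INA6. In JJN3 KIF14 fell, at −0.25 (adjusted p = 0.000189), and its line difference passed (adjusted p = 2.24e-05). Its INA6 call was lost with quantile normalisation (0.11) and without knockdown replicate 1 (0.12), knockdown replicate 2 (0.14) or non-targeting replicate 2 (0.11), with adjusted p from 0.00298 to 0.131 over the 12 alternatives. FAM83D, a spindle protein, rose by 0.24 (adjusted p = 0.000499) in INA6. In JJN3 FAM83D was at 0.12 (adjusted p = 0.0546). TUBG1, the gamma-tubulin gene, was at 0.10 (adjusted p = 0.101) in INA6. In JJN3 TUBG1 rose by 0.28 (adjusted p = 1.68e-05).

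Of 10 further cytokinesis genes 3 rose and 1 fell in INA6 (30.0% and 10.0%), and 2 rose and 1 fell of 9 tested in JJN3 (22.2% and 11.1%). ANLN, the furrow scaffold anillin, rose by 0.20 (adjusted p = 0.00474) in INA6. In JJN3 ANLN was at −0.06 (adjusted p = 0.406). SEPTIN9 rose by 0.14 (adjusted p = 0.0164) in INA6 and 0.12 (adjusted p = 0.0165) in JJN3. Its INA6 call was lost with quantile normalisation (0.092) or no variance trend (0.14) and without knockdown replicate 2 (0.13), knockdown replicate 3 (0.10) or non-targeting replicate 3 (0.11), with adjusted p from 0.00101 to 0.112 over the 12 alternatives. Its JJN3 call was lost with quantile normalisation (0.035) or no variance trend (0.12) and without knockdown replicate 2 (0.11), knockdown replicate 3 (0.084) or non-targeting replicate 1 (0.10), with adjusted p from 0.000919 to 0.447 over the 12 alternatives. The abscission gene CEP55 fell, at −0.12 (adjusted p = 0.0348) in INA6. In JJN3 CEP55 was at 0.026 (adjusted p = 0.694). The INA6 call of CEP55 was lost with no filter (−0.12) or median centring (−0.085) and without knockdown replicate 2 (−0.12), knockdown replicate 3 (−0.11), non-targeting replicate 1 (−0.11) or non-targeting replicate 3 (−0.11), with adjusted p from 0.00523 to 0.139 over the 12 alternatives. The citron kinase gene CIT was at −0.12 (adjusted p = 0.0538) in INA6. In JJN3 CIT fell, at −0.30 (adjusted p = 3.47e-05). CHMP4B, a subunit of the abscission machinery, was at 0.044 (adjusted p = 0.511) in INA6 and rose by 0.25 (adjusted p = 6.63e-05) in JJN3, where quantile normalisation gave 0.15, which passed.

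**Figure D4:**
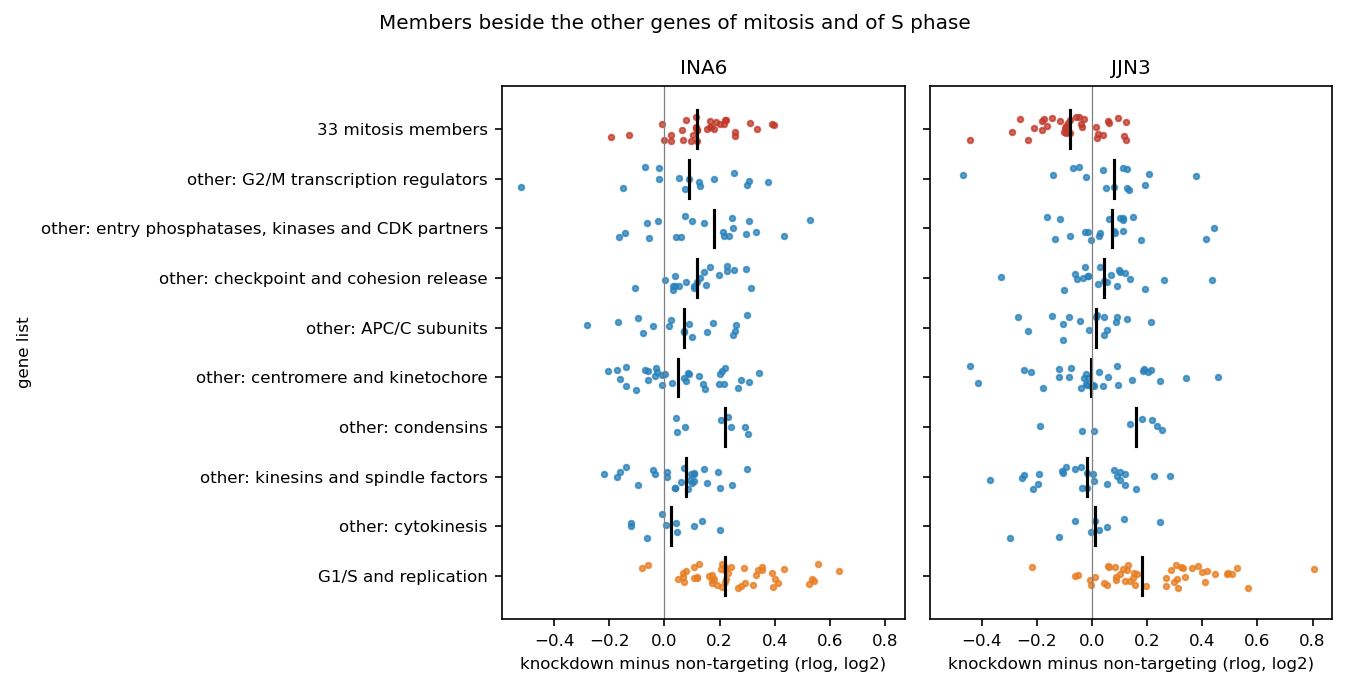
Difference between knockdown and non-targeting means (rlog, log2) of each tested gene, as points, and the median, as a black bar, for the 33 mitotic genes, the 8 other lists of the mitotic pathway and the G1/S and replication list, in INA6 and in JJN3. The medians of the 33 genes are 0.12 in INA6 and −0.081 in JJN3, and those of the G1/S list are 0.22 in INA6 and 0.18 in JJN3.

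The spans of 16 of the 33 genes overlap another RefSeq gene, and for 9 of them that gene is in the tables. Besides CDC23, the partner EXOSC9 of CCNA2 rose by 0.16 (adjusted p = 0.0399) in INA6. In JJN3 EXOSC9 was at 0.061 (adjusted p = 0.396). GNB3, which overlaps CDCA3, was at 0.073 (adjusted p = 0.406) in INA6 and 0.039 (adjusted p = 0.556) in JJN3. PRC1-AS1, which overlaps PRC1, was at an adjusted p of 0.344 in INA6 and under the minimum mean in JJN3, and the other 5 partners were under the minimum mean of 3 in both lines. Without the strand of counting, reads in these overlaps cannot be assigned to either gene.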

How the data were processed

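Poly(A) RNA of 12 libraries in 4 groups of 3 was analysed, grouped by sample title. The submitters' processing notes name the tools Trim Galore, Bowtie2, HTSeq and DESeq2, and the build hg38; versions, annotation, strand setting and whether alignment was spliced are not given in the sources used here. The authors deposited 1 table of rlog values (log2 scale, DESeq2's transformation by the table's name) per line, with 28277 symbols and 6 libraries, and no counts. Per-library depth is therefore unknown, and no interval from counts can be given. No 2 libraries held identical values (0 pairs).

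The members and gene lists were chosen with earlier results of these data known. limma 3.58.1 in R 4.3.3 (lmFit, eBayes with a variance trend) was run per line on symbols with a mean rlog of at least 3, with Benjamini-Hochberg adjustment over all of them, after the scripts were tested on simulated data. Genes named are the 33 members, KANSL2, all 15 G2/M transcription regulators, and from each other list up to 3 called genes per line with the largest difference; genes that overlap a member in the genome were added by position. Alternatives were no filter, a minimum mean of 5, median centring, quantile normalisation, no variance trend, a block for the replicate number, and each library left out in turn. Replicate numbers did not pair the samples. Promoters and positions are from RefSeq (GRCh38.p14); figures were drawn with matplotlib 3.10.9.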

Additional observations from a re-analysis of the deposited data

Results flagged for a closer look

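The difference between knockdown and non-targeting libraries was itself different between INA6 and JJN3 for 19 mitotic genes, tested as the INA6 difference minus the JJN3 difference with adjustment over 11137 symbols. Among the entry genes the INA6 minus JJN3 value was 0.60 for PLK1, 0.48 for CCNB1, 0.40 for AURKA, 0.25 for NEK2 and 0.17 for CCNA2. Among the APC/C activators and checkpoint genes it was 0.48 for CDC20, 0.35 for UBE2C and −0.25 for BUB3, the only gene of the 19 with a value below 0. Kinetochore and passenger genes had 0.40 for CENPE, 0.34 for BIRC5, 0.31 for CENPF and 0.23 for CDCA8. The motors KIF20A and KIF23 had 0.31 and 0.26. Spindle factors had 0.37 for DLGAP5, 0.30 for HMMR and 0.22 for ASPM. TOP2A had 0.28 and ECT2 had 0.35.

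Of the 19 genes 15 kept the call under all 18 alternatives. The CCNA2 call (adjusted p = 0.0363) was lost with quantile normalisation (0.13) and without INA6 knockdown replicate 2 (0.16), INA6 non-targeting replicate 2 (0.16), INA6 non-targeting replicate 3 (0.15), JJN3 knockdown replicate 2 (0.16), JJN3 non-targeting replicate 1 (0.17) or JJN3 non-targeting replicate 3 (0.15), with adjusted p from 0.0261 to 0.0964 over the 18 alternatives. The NEK2 call (adjusted p = 0.0123) was lost with quantile normalisation (0.17), with adjusted p from 0.00131 to 0.0903 over the 18 alternatives. The KIF23 call (adjusted p = 0.00947) was lost without INA6 knockdown replicate 2 (0.22), with adjusted p from 0.0039 to 0.0502 over the 18 alternatives. The ASPM call (adjusted p = 0.0211) was lost with quantile normalisation (0.15) and without INA6 knockdown replicate 1 (0.18), INA6 knockdown replicate 2 (0.19), INA6 non-targeting replicate 1 (0.17), JJN3 knockdown replicate 3 (0.17) or JJN3 non-targeting replicate 1 (0.20), with adjusted p from 0.00083 to 0.13 over the 18 alternatives.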

How the results depend on the processing

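The sign of the median difference of the 33 genes held in each line under every alternative run, while the number of calls moved. In INA6 12 to 20 genes rose with 1 library left out and 14 to 24 under the other 6 settings, against 17; 1 to 2 fell with 1 library left out and 1 with median centring, against 2. The INA6 median was 0.12 to 0.16 with 1 library left out and 0.099 to 0.16 under the other settings. The JJN3 median was −0.10 to −0.064 with 1 library left out and −0.081 to −0.054 under the other settings. In JJN3 7 to 12 genes fell with 1 library left out and 8 to 10 under the other settings, against 10; 1 to 3 rose with 1 library left out and 1 with quantile normalisation, against 2. Between lines 16 to 21 genes passed, against 19. Of the 152 other mitotic genes, 4 to 17 fell in INA6 with 1 library left out and 6 with median centring, against 13.

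Of called genes 12 of 19 in INA6, 6 of 12 in JJN3 and 15 of 19 between lines passed under every alternative. Further genes, not called with the main settings, passed under some. In INA6 these were 7: BUB1B, TTK, CENPE, KIF11, KIF2C, TPX2 and HMMR. In JJN3 they were 7: CCNB2, CDCA3, CDC20, UBE2C, CENPF, BIRC5 and KIF2C. Between lines they were 4: CCNB2, CDK1, BUB1 and CENPA. Signs turned only for genes that had not passed. With median centring INA6 CDK1 was at 0.035, CENPA at 0.029, RBBP4 at 0.019, NFYA at 0.019 and NSL1 at 0.028, and JJN3 NFYB at 0.0070. With quantile normalisation INA6 NUSAP1 was at −0.057, TOP2A at −0.066 and CHMP4B at −0.00095, JJN3 TTK at 0.015, NUSAP1 at −0.045, LIN9 at 0.023, TFDP1 at −0.068 and NFYB at 0.040, and the line difference of AURKB at −0.013, KIF2C at −0.0096 and NUSAP1 at −0.012. With 1 library left out the ranges in INA6 were −0.064 to 0.053 for CDK1, −0.038 to 0.037 for CENPA, −0.051 to 0.020 for NFYA, −0.026 to 0.014 for NSL1, −0.0094 to 0.061 for NUSAP1, −0.042 to 0.0031 for RBBP4 and −0.0084 to 0.060 for TOP2A. In JJN3 they were −0.027 to 0.049 for BUB1B, −0.017 to 0.075 for CEP55, −0.085 to 0.012 for LIN9, −0.0073 to 0.058 for MAD2L1BP, −0.065 to 0.013 for NFYB, −0.0040 to 0.044 for NUSAP1, −0.015 to 0.050 for PRC1 and −0.0025 to 0.099 for WEE1. The line difference ran from −0.047 to 0.081 for KIF2C and from −0.030 to 0.040 for NUSAP1. The cause was not tested.

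Same-numbered libraries did not deviate together: the correlations of their deviations were −0.18, −0.068 and −0.30 in INA6 and 0.0045, −0.014 and 0.0019 in JJN3. With the replicate number as a block, 16 genes rose and 2 fell in INA6, 2 rose and 10 fell in JJN3, and 18 passed between lines. The block ended the INA6 calls of AURKB, FOXM1, E2F4 and CEP55, the JJN3 call of E2F5 and the line call of CCNA2. With no counts in the files, the depth behind low genes is unknown, and rlog shrinkage limits what low genes can show.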
